A study of Mus musculus with 4 samples.

Results

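The genes described here are the mouse zinc finger proteins whose names consist of Zfp and a number. A locus of the deposited table was taken as a member where 1 of its gene names had that form and its normalised read count was 100 or more in all 4 libraries, and Zfp36, an RNA-binding protein of another structural class, was left out. Members were thus selected on their name and on the level in every library, not on the difference between genotypes. The rule gave 273 members among 340 Zfp-named single loci and 17956 single loci in all. The other 67 Zfp-named loci were under 100 in at least 1 library. Of the 273 members, 206 carried a single name and 67 were merged with other gene names, such as Pram1+Zfp414, and the reads of a merged locus cannot be divided between its names.

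RNA sequencing was done on Lin-Kit+ bone-marrow cells of C57BL/6 mice, the fraction without mature lineage markers that carries the Kit receptor and holds blood stem and progenitor cells. Wild-type mice (WT) gave 2 libraries and mice homozygous for loss of Asxl1 (Asxl1-/-, here KO) gave the other 2, each from 2000000 cells. The study asked how genes that change without Asxl1, a Polycomb-associated chromatin protein, relate to its binding sites and to those of cohesin. The labels do not say whether the libraries of a genotype came from separate animals, so p-values measure the spread between these libraries. Nothing on the age of the mice, the form of the Asxl1 deletion or any shared treatment is given in the sources used here.

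Most Zfp-named proteins are DNA-binding factors with a row of C2H2 fingers, each of which reads a few bases. Many also carry a KRAB box, which recruits the corepressor TRIM28 (KAP1) and, through it, the histone methyltransferase SETDB1, HP1 proteins and deacetylases. KRAB zinc finger genes multiplied by local duplication, stand in clusters on the chromosomes, and are best known for silencing retrotransposons and for guarding imprinted genes. The Zfp name also covers older, conserved proteins without a KRAB box that act in transcription, RNA handling, ribosome assembly or the mitotic spindle.

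Asxl1 itself (chr2:153171874-153229743, mm9) had normalised read counts of 9742 and 9472 in the WT libraries and 146 and 135 in the KO libraries. The KO libraries held 1.46% of the WT mean, a difference of -6.09 ± 0.09 (SE) on the log2 scale (limma, adjusted p = 8.89e-06). Reads recovered from the deposited values, summed over all rows, numbered 46597871 to 83586916 per library, with both KO libraries above both WT libraries. Kit, which defines the sorted cells, ran from 16149 to 18889 and differed by 0.14 on the log2 scale (limma, adjusted p = 0.131). A merged locus that includes Cd34 was lower without Asxl1, with a log2 difference of -0.83 (limma, adjusted p = 0.00131). Among marker lists of blood cells, 9 of 10 mature neutrophil markers rose, with a summed value of 1044072 to 1164406 in WT and 1961254 to 2100634 in KO. Conversely, 6 of 7 stem cell markers fell, from summed values of 6352 to 6622 in WT to 4978 to 5143 in KO. Of 6 progenitor markers, 2 fell and 0 rose, and the ratio of their summed values, KO over WT, was 0.82. Similar levels of Kit thus do not show that the progenitor fraction was matched between genotypes. Early B-cell markers fell in 3 of 7 cases and erythroid markers rose in 4 of 8. The part of these shifts in the values below was not tested, and in bulk RNA fewer cells of a type and less RNA per cell cannot be told apart. Xist was high in replicate 1 (103006 in WT and 89290.1 in KO) and low in replicate 2 (2123 and 147). Within each genotype the libraries thus differed widely in Xist, and the spread that limma used includes such differences between replicates.

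Among the Zfp members, more loci were lower without Asxl1 than higher. With limma across all 13764 tested loci and an adjusted p threshold of 0.05, 46 of 273 members fell (16.8%) and 11 rose (4.03%). Over all tested loci, 20.9% passed the threshold, 8.97% lower and 11.9% higher. Over the 10636 loci that met the same value floor, 23.8% passed it, 10.2% lower and 13.6% higher. The members' median log2 difference (KO minus WT) was -0.13, beside -0.01 over all tested loci, and 184 of the 273 lay below 0. Both KO libraries lay below both WT libraries for 148 members and above them for 52. The background for these is 33.6% of all tested loci below and 32.5% above (35.8% and 33.0% of the loci at the value floor). The set was proposed with these differences known, so the shares describe it and are no independent test. Most differences were modest: 29 of the 57 called members changed by less than 1.5-fold, and 2 by 2-fold or more. The counts rested on having both WT libraries. Without WT replicate 1, 9 members were lower and 4 higher (266 and 603 of all tested loci), and without WT replicate 2, 7 were lower and 4 higher (272 and 809). Without KO replicate 2, 17 were higher and 48 lower. The 57 called members all had libraries that did not overlap between genotypes, so leaving out 1 library could not reverse their sign.

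Together, the members held 0.929% and 0.935% of the reads assigned to loci in the WT libraries. In the KO libraries they held 0.872% and 0.865%. The KO shares were both below the WT shares. Members with a KRAB box took 0.268% and 0.263% of WT reads and 0.233% and 0.228% of KO reads. Members without one took 0.661% and 0.671% of WT reads and 0.638% and 0.636% of KO reads. On the normalised scale used elsewhere, all members summed to 560573 and 566904 in WT and 551875 and 547215 in KO. KRAB members summed to 161426 and 159410 in WT and 147334 and 144431 in KO. Members without a KRAB box summed to 398601 and 406977 in WT and 404208 and 402431 in KO, so on this scale their genotypes overlapped.

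The called members on the lower side were mostly those with a KRAB box. A KRAB box was found in the coding sequence of 143 members and not in 129, and 1 member, Zfp862, could not be matched to a coding sequence. Of the 143 KRAB members, 30 fell and 1 rose (Zfp458), the median log2 difference was -0.26, and 118 lay below 0. Of the 129 members without a KRAB box, 15 fell and 10 rose, and the median was -0.00. As shares, 20.98% of KRAB members were lower and 0.699% higher, and 11.6% of the others were lower and 7.75% higher. Over all loci that met the same value floor, 10.2% were lower and 13.6% higher. The lower share without a KRAB box was thus near that of all loci, and the higher share was below it in both classes. These differences in share were not tested. KRAB members had a median of 12 C2H2 fingers and the others 7. Without WT replicate 1, 3 KRAB members were lower and 0 higher, and 6 members without a KRAB box were lower and 4 higher. Without WT replicate 2, these counts were 2 and 0, and 5 and 4. Leaving out KO replicate 1 gave 38 lower and 2 higher KRAB members, and 23 lower members without a KRAB box.

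The 2 classes also differed in read count, which is not corrected for transcript length and mainly sets how precisely a locus is measured. The median over members of the mean normalised read count was 705 with a KRAB box and 2215 without. At mean normalised read counts of 100 to 500, KRAB members had a median log2 difference of -0.51 (16 of 52 lower, 1 higher). The others had -0.39 (3 of 21 lower). Other loci of the table in that band had a median of -0.07, with 11.8% lower. Between 500 and 1000, the median was -0.24 for KRAB members (8 of 42 lower) and -0.12 for the others (2 of 17 lower). Other loci of the table there had a median of -0.07, with 11.1% lower. Between 1000 and 2000, the median was -0.14 for KRAB members (5 of 34 lower) and 0.04 for the others (1 of 23 lower). Other loci of the table there had a median of -0.06, with 12.4% lower, near the KRAB share of 14.7%. From 2000 to 5000 the median was 0.01 for 13 KRAB members (1 lower) and 0.02 for the 47 others (7 lower, 5 higher). The class medians thus did not separate there, with few KRAB members to compare. At 5000 and above there were 2 KRAB members. Across the 273 members, Spearman's rho between mean read count and log2 difference was 0.53. Across the 10363 other loci at the value floor it was 0.15. These correlations run across genes of the same 4 libraries, and genes are not independent replicates.

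**Figure D1:**
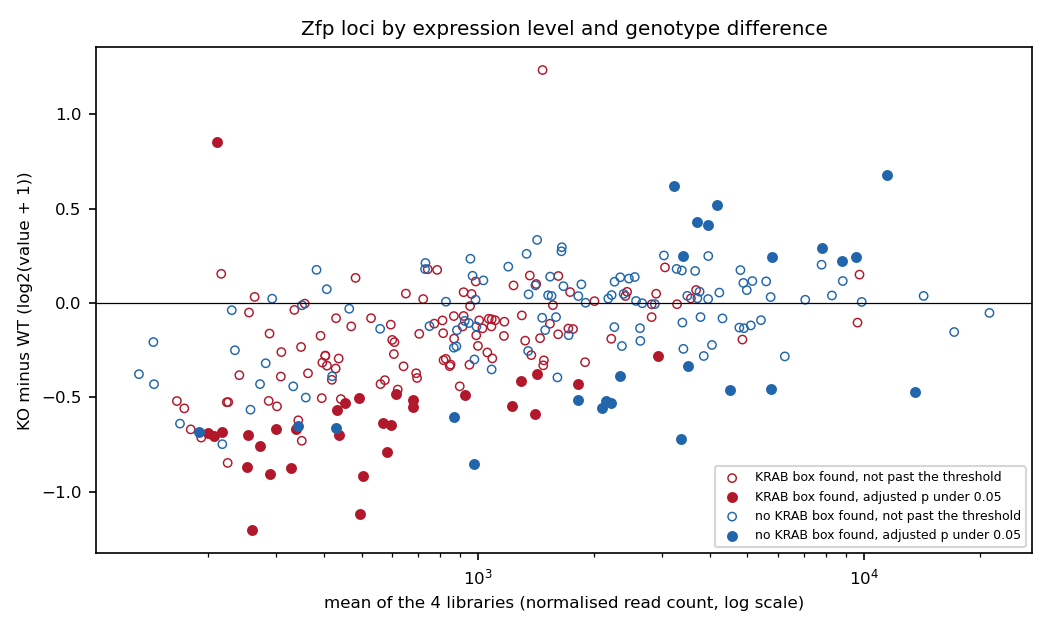
Log2 difference between KO and WT (vertical axis, log2(value + 1) scale) against the mean normalised read count of the 4 libraries (horizontal axis, log scale) for the 272 Zfp members matched to a coding sequence. Red points have a KRAB box, blue points have none, and filled points passed an adjusted p of 0.05. Filled red points lie below 0 with the exception of Zfp458, and the filled points above 0 other than Zfp458 are blue and lie at mean read counts of 2000 or more.

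Members lie on 20 chromosomes, 65 of them on chromosome 7. Zfp-named loci no more than 1 Mb apart were joined into clusters, and 23 clusters held 3 or more members, 151 in all. The median log2 difference was below 0 in 21 of the 23 clusters, and 18 held at least 1 member that fell. Without WT replicate 2 the count was 20, since the median of the 3 chromosome 18 members then moved from -0.07 to 0.02. The 3 chromosome 5 members, at -0.09, had a median of -0.01 without WT replicate 1 and -0.17 without WT replicate 2. Among clusters with larger medians, 1 on chromosome 7 (chr7:6083090-7162709, mm9; 8 members) moved from -0.27 to -0.16 without KO replicate 2. In the clusters, 34 members fell and 3 rose, with a median of -0.24. Among the 122 dispersed members, 12 fell and 8 rose, with a median of -0.02. The 129 loci without a Zfp name that lie inside the clusters and met the same value floor had 17 lower, 18 higher and a median of -0.04. KRAB members lay below 0 in both settings, with a median of -0.28 for the 112 in clusters (25 lower) and -0.16 for the 31 dispersed ones (5 lower). Members without a KRAB box had medians of -0.14 in clusters (38 members, 8 lower, 2 higher) and 0.02 elsewhere (91 members, 7 lower, 8 higher). The difference between clustered and dispersed members was not tested.

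**Figure D2:**
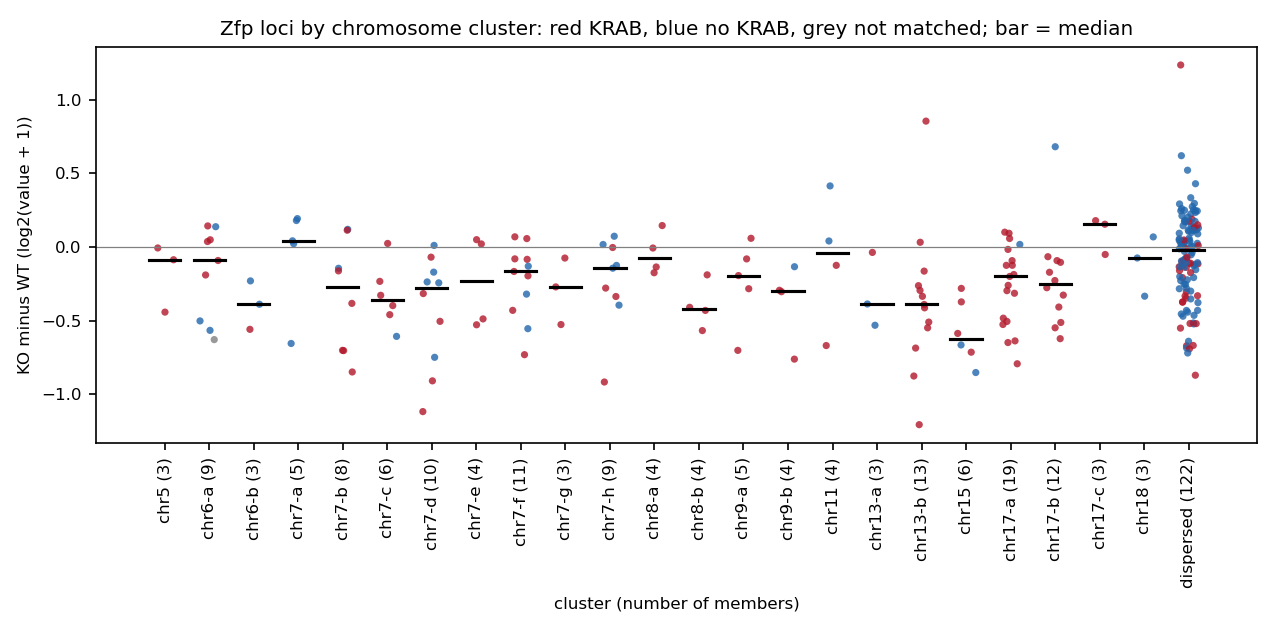
Log2 difference between KO and WT of each of the 273 Zfp members (vertical axis), by chromosome cluster (horizontal axis, letters number the clusters of a chromosome in order, with the number of members in parentheses). Black bars are medians; red points have a KRAB box, blue points have none and the grey point was not matched. The bars lie below 0 in 21 of 23 clusters, lowest in the chromosome 15 cluster at -0.63.

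The cluster with the lowest median lies on chromosome 15 (chr15:75447114-76755878, mm9). Its median log2 difference was -0.63, and all 6 members had both KO libraries below both WT libraries. Zfp41 had normalised read counts of 1246 and 1251 in WT and 819 and 584 in KO, a log2 difference of -0.85 ± 0.17 (SE; limma, adjusted p = 0.0201). AK018584+Zfp251, a KRAB member, went from 1602 and 1782 to 1101 and 1149 (-0.59 ± 0.09, limma, adjusted p = 0.00963). Zfp623 went from 537 and 512 to 285 and 384 (-0.66 ± 0.18, limma, adjusted p = 0.0463). Zfp623 passed the threshold in 9 of the 14 fits tried, which include those that left out a library. Each of these 3 members was lower in both KO libraries by more than the WT libraries differed from each other. The other 3, Zfp707, Zfp7 and Zfp647, had log2 differences of -0.28, -0.37 and -0.71 and did not pass the threshold (adjusted p 0.161, 0.081 and 0.0709). Of the 36 loci without a Zfp name in this interval, 5 fell and 3 rose, and their median was -0.05. Leaving out WT replicate 2 took AK018584+Zfp251 to an adjusted p of 0.0706, and leaving out either WT library took Zfp41 past 0.05 (0.0861 without replicate 1 and 0.0805 without replicate 2).

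The chromosome 13 cluster (chr13:67139529-67927937, mm9) held 13 members, all with a KRAB box, and includes Rsl1, a regulator of sex-limited liver genes. Of these, 5 fell, 1 rose, and 11 lay below 0, with a median of -0.39. The promoters of this cluster share a short sequence. Promoter windows from RefSeq (GRCm38.p6, 250 bases before to 50 after the gene start) were matched by name to 225 members. Zfp429 and Zfp780b, names that label more than 1 locus each, were not used for this. The stretches below come from the windows of members that fell (Zfp708, Zfp595, Zfp58, Zfp273), of the member that rose (Zfp458) and of one near 0 (Zfp456), and show how much the duplicated genes have in common. They read 5′ to 3′ on the gene's strand, and capitals mark the letters GGGANNTGTAGT, the other strand of ACTACANNTCCC.
Zfp708, chr13:67081566-67081617, minus strand: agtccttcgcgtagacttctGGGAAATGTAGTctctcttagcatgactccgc
Zfp458, chr13:67269141-67269192, minus strand: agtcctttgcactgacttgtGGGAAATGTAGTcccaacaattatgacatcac
Zfp595, chr13:67332580-67332631, minus strand: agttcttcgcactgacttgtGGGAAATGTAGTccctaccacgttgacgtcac
Zfp456, chr13:67375801-67375852, minus strand: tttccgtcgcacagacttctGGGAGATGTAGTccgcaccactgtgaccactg
Zfp58, chr13:67500522-67500573, minus strand: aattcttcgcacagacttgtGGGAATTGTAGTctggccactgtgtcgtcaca
Zfp273, chr13:67813729-67813780, plus strand: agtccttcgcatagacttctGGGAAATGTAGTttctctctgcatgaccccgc
The letters lay in at least 1 window of all 12 members of the cluster that were matched, the member that rose included. Rsl1+Zfp429, which fell, is not among the 12.

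ACTACANNTCCC was chosen from the windows of this cluster, as the pattern of 6 letters, 2 free positions and 4 letters held by most of them (13 of 14), so its count there is a description. On either strand it occurred in 1.81% of all 32851 promoter windows. It occurred in 19.9% of 151 windows of KRAB members and in 7.86% of 140 windows of the others. The 151 include the windows of the chromosome 13 cluster from which it was chosen, which raises the KRAB share. Outside that cluster, 17 KRAB members held it and 96 did not, beside 11 and 89 of the members without a KRAB box. Outside chromosome 13 it was frequent in a chromosome 7 cluster (chr7:30553570-30954746, mm9), in 8 of the 10 members matched there. Both large chromosome 17 clusters had it in 0 of 17 and 0 of 11 matched members. Among KRAB members outside the chromosome 13 cluster, 17 with the letters had a median log2 difference of -0.23 (4 lower) and 96 without them -0.19 (17 lower). The lower members were thus found with and without it. CCGGAAG, a core recognised by ETS factors, occurred in 24.5% of KRAB windows, 17.9% of the other members' windows and 8.86% of all windows. GCGCATG, part of the NRF1 motif, occurred in 3.97% of KRAB windows, 8.57% of the others' and 3.91% of all. Windows of KRAB members held a median of 12 CG dinucleotides and those of the other members 21, beside 7 over all windows. A match to letters is a description of the window and shows no binding.

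Within the chromosome 13 cluster, Rsl1+Zfp429 had normalised read counts of 462 and 273 in WT and 155 and 152 in KO. Its log2 difference was -1.21 ± 0.27 (SE; limma, adjusted p = 0.0287), the largest fall among the called members. The WT libraries differed from each other by more than the KO libraries did, and both lay above both KO libraries. The KRAB box of this locus was read from the coding sequence of Zfp429. The same pair of names labels a further locus that is no member (325, 20.7, 197 and 228, in the order WT replicates 1 and 2, KO replicates 1 and 2), and how reads were divided between the copies is not given in the sources used here. Zfp708+BC038328, where Zfp708 is a repressor of retrotransposons, had 383 and 459.8 in WT and 189 and 276 in KO (-0.88 ± 0.22, limma, adjusted p = 0.0422). Zfp58+Zfp87 had 1461 and 1455 in WT and 973 and 1021 in KO (-0.55 ± 0.08, limma, adjusted p = 0.00925). The 2 genotypes did not overlap in either locus. Zfp595+Zfp953, which merges a pair of copies, and Zfp273 fell by 0.41 and 0.69 on the log2 scale (limma, adjusted p 0.0193 and 0.0495). They passed the threshold in 12 and 7 of the 14 fits tried. Against these, Zfp458 had 139.9 and 161 in WT and 261 and 284 in KO (0.85 ± 0.18, limma, adjusted p = 0.024), so both KO libraries were higher. Zfp456, of the same cluster, ranged from 172 to 368 within WT and did not separate the genotypes (0.03, limma, adjusted p = 0.959). Leaving out WT replicate 1 gave adjusted p values of 0.124 for Rsl1+Zfp429, 0.106 for Zfp708+BC038328, 0.0718 for Zfp58+Zfp87 and 0.133 for Zfp458. Leaving out WT replicate 2 gave 0.0183, 0.186, 0.064 and 0.0758 in that order. Without KO replicate 1, Zfp708+BC038328 was at 0.0604, and without KO replicate 2, Zfp458 was at 0.0511.

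**Figure D3:**
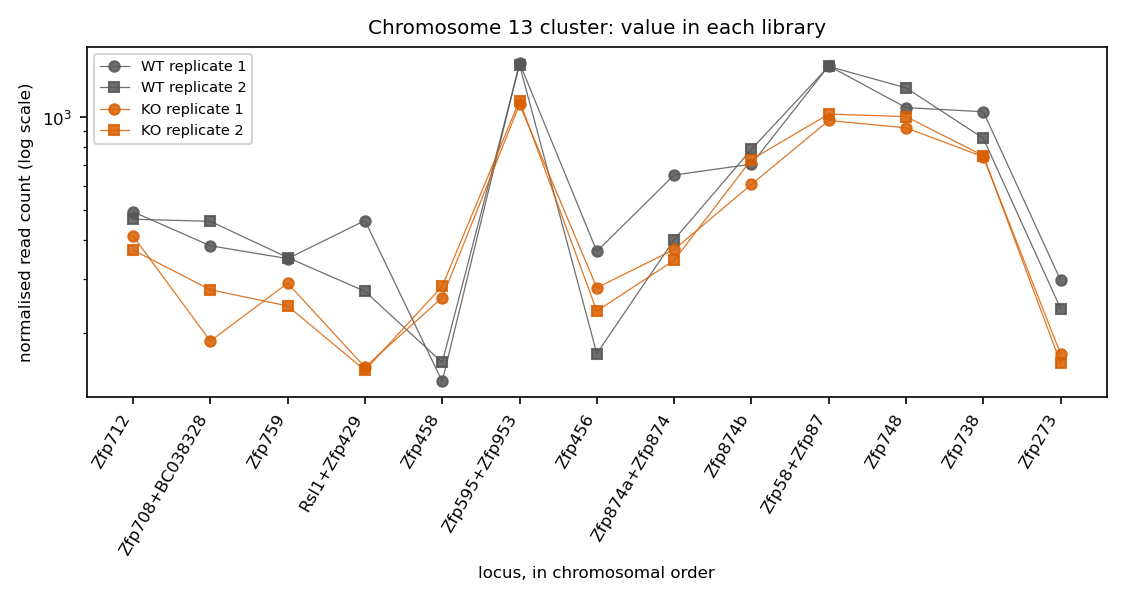
Normalised read count (vertical axis, log scale) of the 13 members of the chromosome 13 cluster in each of the 4 libraries, in chromosomal order. Grey symbols are WT and orange symbols KO libraries, and lines join the values of a library. The KO values lie below the WT values at 10 of the 13 loci and above them at Zfp458.

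A chromosome 7 cluster (chr7:24866962-26012524, mm9) held 10 members with a median of -0.28. Among them were Zfp111 and Zfp109, neighbouring KRAB genes. Zfp111 had normalised read counts of 697 and 657 in WT and 274 and 355 in KO, a log2 difference of -1.12 ± 0.16 (SE; limma, adjusted p = 0.00836). Zfp109 had 382 and 371 in WT and 167 and 240.1 in KO (-0.91 ± 0.21, limma, adjusted p = 0.0317). The WT libraries agreed closely with each other in both genes, and KO replicate 1 was the lower of the KO libraries. Zfp180, at the edge of the same cluster and without a KRAB box, had 2542, 2582, 2591 and 2572 in the 4 libraries (0.01, adjusted p = 0.917). Of the 8 members of this cluster matched to a promoter window, only these 3 hold the letters described for chromosome 13, again in capitals.
Zfp180, chr7:24081854-24081905, plus strand: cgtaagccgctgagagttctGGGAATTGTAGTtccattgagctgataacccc
Zfp111, chr7:24208182-24208233, minus strand: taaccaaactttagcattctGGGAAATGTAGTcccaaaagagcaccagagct
Zfp109, chr7:24237692-24237743, minus strand: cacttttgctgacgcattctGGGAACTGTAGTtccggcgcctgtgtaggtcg
These positions are on GRCm38.p6. The 3 genes thus share the letters while 2 of them fell and Zfp180 did not pass the threshold. Without WT replicate 1, Zfp111 had an adjusted p of 0.0551 and Zfp109 of 0.146, and without WT replicate 2, Zfp109 had 0.12. The 16 loci without a Zfp name in the interval had 4 lower, 7 higher and a median of 0.12.

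The largest cluster lies on chromosome 17 (chr17:21145904-23736454, mm9) and held 19 members, 18 of them with a KRAB box. There 5 fell (Zfp760, Zfp229+BC043476, Zfp820, Zfp946 and Zfp677), 0 rose, and the median was -0.20. Zfp760 had 702 and 773 in WT and 414 and 437 in KO (-0.79 ± 0.12, SE; limma, adjusted p = 0.0091), with no overlap. Zfp51, Zfp942 and Zfp944 of the same cluster had log2 differences of 0.09, 0.06 and 0.10 with overlapping libraries, so the cluster did not move as a block. Without WT replicate 2, the adjusted p of Zfp760 was 0.0702.

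A further chromosome 17 cluster (chr17:32902441-33782651, mm9) held 12 members, and 11 of them lay below 0 with a median of -0.25. Without KO replicate 2 the median was -0.15, and without KO replicate 1 it was -0.32. Zfp799 passed the threshold on the lower side (-0.51, limma, adjusted p = 0.0313) and Zfp563 lay at the threshold (-0.55, adjusted p = 0.0503). The exception was the merged locus Pram1+Zfp414, which had 8599.7 and 9101 in WT and 14476 and 13884 in KO (0.68 ± 0.05, SE; limma, adjusted p = 0.00175). Both KO libraries were higher, by far more than libraries of a genotype differed. Pram1 is an adaptor protein of myeloid cells, and its part in this value against that of Zfp414 cannot be told apart. Neutrophil markers rose in the same libraries, and their part in this locus was not tested. On chromosome 8 (chr8:74405966-74494232, mm9), the 4 KRAB members of a compact cluster all had both KO libraries below both WT libraries, with a median of -0.42. Of these, BC049349+Zfp961+mszf37 (-0.43) and Zfp882 (-0.57) passed the threshold (limma, adjusted p 0.0146 and 0.0283). Each passed it in 12 of the 14 fits tried. Only the chromosome 7 cluster at chr7:4866818-5005325 and the chromosome 17 cluster at chr17:56004191-56088923 (mm9) had medians above 0 among the 23. Their medians were 0.04 and 0.15, and 0 of their members rose. Leaving out 1 library in turn gave 0.02 to 0.06 and 0.01 to 0.24, and with upper-quartile scaling the median of the former was below 0. The latter holds Zfp119+Zfp119a and Zfp119b, near-identical copies whose reads may be divided arbitrarily.

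Near-identical copies could also differ by how reads were assigned. The name Zfp780b occurs at a pair of chromosome 7 loci. Zfp780b+Zfp60 had 1129 and 1038 in WT and 749.6 and 795 in KO (-0.49, limma, adjusted p = 0.0225), whereas the locus named Zfp780b alone had 758, 677, 712 and 741 (0.02, adjusted p = 0.912). The handling of reads that match several places is not given in the sources used here, so both values are uncertain. Zfp780b+Zfp60 passed the threshold in 12 of the 14 fits tried.

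Members of other clusters are named where they had the smallest p of their own cluster. Zfp764, on distal chromosome 7, had 614 and 706 in WT and 355 and 342 in KO (-0.92 ± 0.13, SE; limma, adjusted p = 0.00813). Zfp599 on chromosome 9 had 339 and 346 in WT and 217 and 188 in KO (-0.76 ± 0.16, limma, adjusted p = 0.0244). Zfp846, in a neighbouring chromosome 9 cluster, had means of 541 ± 58.5 (SD, n = 2) in WT and 332 ± 7.08 (SD, n = 2) in KO (-0.70 ± 0.14, limma, adjusted p = 0.021). All 3 carry a KRAB box, and in all 3 both KO libraries were lower. Zfp260 (-0.55), Zfp187+Mir1896 (-0.53), Zfp667 (-0.70), Zfp579 (-0.65), Zfp862 (-0.63), Zfp329 (-0.61) and Zfp397 (-0.33) led their clusters on the lower side. Their adjusted p values in limma ran from 0.00701 for Zfp187+Mir1896 to 0.0392 for Zfp579. With either WT library left out, they ran from 0.0312 to 0.181, and without KO replicate 2 Zfp579 was at 0.0709. Zfp658, Zfp113 and Zfp239 led theirs with log2 differences of -0.53, -0.44 and -0.39 that did not pass the threshold. Zfp868 (0.15) and Zfp959 (0.18) led the remaining 2 from the upper side and did not pass it either. Leaving out WT replicate 2 took Zfp764 to an adjusted p of 0.06, and leaving out either WT library took Zfp599 to 0.128 or 0.129 and Zfp846 to 0.148 or 0.0629.

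Outside the clusters, several members without a KRAB box also fell. Zfp664 had normalised read counts of 3999 and 4359 in WT and 2407 and 2672 in KO, a log2 difference of -0.72 ± 0.08 (SE; limma, adjusted p = 0.00402). Zfp706, a short protein with 1 finger and among the 5 members with the most reads, had 16038 and 15561 in WT and 11325 and 11494 in KO (-0.47 ± 0.05, limma, adjusted p = 0.00265). Zfp238+rp58, the repressor also called RP58 or Zbtb18, had 6439 and 6885 in WT and 4819.6 and 4898 in KO (-0.45 ± 0.06, limma, adjusted p = 0.00568). The genotypes were far apart in these 3 genes relative to the spread within a genotype. They and C030034L19Rik+Zfp704 (-0.46) passed the threshold in all 14 fits tried, as did Pram1+Zfp414, Zfp516 and Zfp622 on the upper side. Zfp354c, a KRAB repressor outside the clusters, had 334 and 316 in WT and 215 and 146 in KO (-0.87 ± 0.22, limma, adjusted p = 0.0428). Its adjusted p was 0.0621 without KO replicate 2, 0.181 without WT replicate 1 and 0.14 without WT replicate 2.

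Of the 11 members that rose, 10 had no KRAB box and 10 had a mean read count of 2000 or more. Zfp516, a transcriptional regulator known from brown fat, had 2555 and 2522 in WT and 4039.7 and 3766 in KO (0.62 ± 0.06, SE; limma, adjusted p = 0.00343). Zfp622, which acts in the maturation of the large ribosomal subunit, had 3243 and 3625 in WT and 5009 and 4832 in KO (0.52 ± 0.07, limma, adjusted p = 0.00757). Zfp654 had 3234 and 3071 in WT and 4144 and 4346 in KO (0.43 ± 0.06, limma, adjusted p = 0.0083). In each, both KO libraries lay above both WT libraries with a gap wider than the spread within a genotype. Zfp692+Zfp692-ps rose by 0.41 (adjusted p = 0.0113), Zfp292 by 0.29 (0.04996), Zfp281 by 0.25 (0.0326), Zfp592 by 0.25 (0.0281), Zfp800 by 0.24 (0.0256) and the merged locus with Zfp687 by 0.22 (0.0245), all from limma. These 6 differences were small, and 2 of the calls depended on the scaling: with upper-quartile scaling Zfp281 was at 0.0572 and Zfp292 at 0.0755. Without WT replicate 1, Zfp692+Zfp692-ps, Zfp281, Zfp592 and Zfp800 had adjusted p values of 0.0805, 0.207, 0.188 and 0.183. Without WT replicate 2, Zfp654, Zfp281, Zfp592 and Zfp800 had 0.0596, 0.14, 0.0706 and 0.102. The merged locus with Zfp687 had 0.124 and 0.164 in these fits. Zfp292 had 0.232 and 0.101 there and 0.0812 without KO replicate 1, where Zfp281 was at 0.0513.

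**Figure D4:**
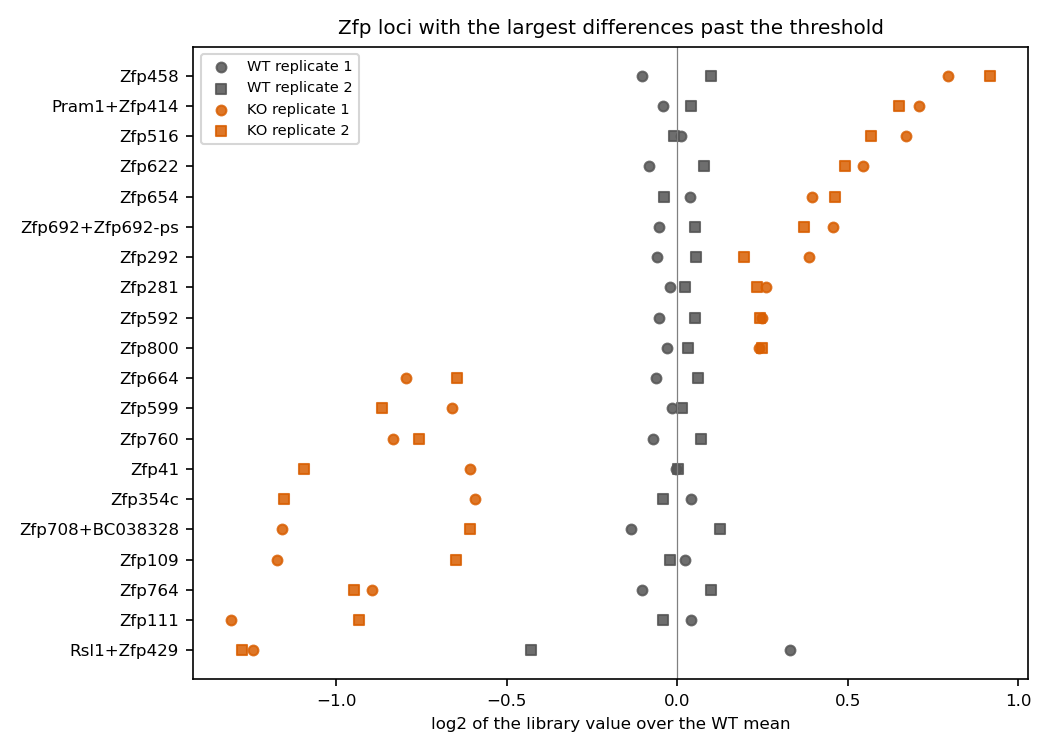
Value of each library relative to the WT mean (horizontal axis, log2 scale) for the 10 Zfp members with the largest called rise and the 10 with the largest called fall (vertical axis). Grey symbols are WT and orange symbols KO libraries, with circles for replicate 1 and squares for replicate 2. The KO symbols lie outside the range of the WT symbols at all 20 loci, as the choice of loci required. The WT libraries are farthest apart at Rsl1+Zfp429.

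By role, lists of members with described functions were compared. The shares over all loci at the value floor, 10.2% lower and 13.6% higher, are the background for the counts by role. Of 8 genes known from the control of transposons and imprints, 5 were members, of which 2 fell and 0 rose. Zfp708 is given above, and Zfp932, which binds endogenous retroviruses, had 1623 and 1593 in WT and 1279 and 1202 in KO (-0.37 ± 0.08, SE; limma, adjusted p = 0.0257). Zfp809, which silences proviruses of the murine leukaemia virus type, had 1192 and 1209.9 in WT and 931 and 1029.8 in KO (-0.29 ± 0.09), and missed the threshold (adjusted p = 0.0744). The imprint regulator Zfp445 had 9307 and 9183 in WT and 10772 and 9772 in KO (0.15, adjusted p = 0.129), and Zfp568, a repressor of an Igf2 promoter, differed by 0.07 (adjusted p = 0.446). Zfp57, the other main imprint regulator, stayed below the floor, with 50.5 and 70.7 in WT and 26.5 and 51.2 in KO, and so did Zfp819. Without WT replicate 1, Zfp932 was at an adjusted p of 0.162, and without WT replicate 2 at 0.127.

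Of 18 genes of chromatin and transcription, 14 were members, and 4 rose (Zfp281, Zfp516, Zfp592 and the merged locus with Zfp687) while 0 fell. Zfp592 and Zfp687 are partners in a chromatin-reader complex with Zmynd8. Zfp592 had 8407 and 9037 in WT and 10357 and 10314 in KO, and the locus with Zfp687, which also holds the lipid kinase Pi4kb, had 8214 and 7986 in WT and 9393 and 9535 in KO. Zfp143, Zfp148, Zfp217, Zfp410+Apa1 and Zfp644 differed by 0.11, 0.04, 0.03, 0.02 and 0.04 and did not pass the threshold. Of 9 genes of RNA, ribosome and spindle, 8 were members and 1 rose, Zfp622. Zfp207, a spindle-assembly protein and the member with the most reads, had 21181 and 21952 in WT and 19615 and 22034 in KO, so its genotypes overlapped (-0.05, adjusted p = 0.595). Zfp106, an RNA-binding protein, had 18316 and 17855 in WT and 16587 and 15928 in KO (-0.15 ± 0.05, adjusted p = 0.0647), below in both KO libraries without passing the threshold. It passed it with DESeq2 (adjusted p = 0.0449) and with upper-quartile scaling (0.0302).

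Of 9 genes known from blood and immune cells, 8 were members, and 1 fell (Zfp238). Zfp521, a regulator of stem and progenitor cells, had 419.6 and 348 in WT and 298 and 265 in KO (-0.44 ± 0.16, adjusted p = 0.107). Zfp467 had 430.0 and 407 in WT and 258 and 337 in KO (-0.50 ± 0.17, adjusted p = 0.0911). Both lay lower in both KO libraries without passing the threshold. Cntf+Zfp91, where Zfp91 is a ubiquitin ligase, had 13929 and 14307 in WT and 14929 and 14060.1 in KO (0.04, adjusted p = 0.629), with overlap.

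The corepressor machinery through which KRAB boxes act was measured beside the members. Of 17 tested genes of an 18-gene list, 3 fell (17.6%) and 0 rose, beside 8.97% lower and 11.9% higher over all tested loci. With so few genes these counts only describe the list. Trim28, the shared corepressor, had 28743 and 29986 in WT and 26462 and 26877 in KO (-0.14 ± 0.04, SE; limma, adjusted p = 0.0778). Cbx1, an HP1 protein, had 3382 and 3258 in WT and 2635 and 2577 in KO (-0.35 ± 0.06, limma, adjusted p = 0.0145). Mphosph8+AK045225+BC027359, with a subunit of the HUSH complex, fell by 0.29 and the deacetylase Hdac2 by 0.19 (limma, adjusted p 0.0195 and 0.032). The merged locus Lass2+Setdb1 differed by -0.03 (adjusted p = 0.698). The list's median was -0.14.

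Other zinc finger name families at the same value floor gave 5 lower and 5 higher of 31 Zbtb loci (median -0.06), 2 lower and 2 higher of 14 Zscan and Zkscan loci (-0.17), and 1 lower and 2 higher of 14 Zc3h loci (0.03). Of all loci at that floor, 10.2% were lower and 13.6% higher. Differences between these families and the Zfp members were not tested. Members near the deleted gene were few: within 10 Mb of Asxl1 lay Zfp341+AK145231 (-0.03, adjusted p = 0.888) and Mzf31+Zfp120 (-0.11, adjusted p = 0.324).

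The value floor asks for 100 in every library, so a locus near 100 in WT that was lower in KO was left out. Just inside it were Zfp3 (164, 135, 108 and 121 in the order given above), B230315N10Rik+Zfp938 (212, 229, 159.9 and 119.7) and Zfp167+AK041109 (150.2, 159, 147 and 121). Just outside were AK046006+Zfp287 (214, 151, 97.8 and 99.0), Zfp455 (234, 187, 125 and 94.9) and Zfp174 (115, 93.9, 115 and 99.0). Of the 67 Zfp-named loci below the floor, 51 were tested and 16 were too low. Among the 51, 6 fell (Zfp455, Zfp937, Zfp286, Zfp114, Zfp493 and Zfp78), 0 rose, and the median was -0.42. The share lower was 11.8%, beside 8.97% of all tested loci. Zfp493, in the chromosome 13 cluster, had 190.4 and 154 in WT and 69.7 and 55.3 in KO (-1.45, limma, adjusted p = 0.0139).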

How the data were processed

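The values deposited by the authors are a signal, namely whole reads of a locus times a factor that is constant within a library, judging by the steps between values. Reads were aligned with STAR 2.3.1t to mm9, per the submitters' processing notes. No counter, annotation, strand setting or scaling tool is given in the sources used here. Dividing by the value of 1 read (0.758 to 1.30) gave whole reads for 100% of values, within 0.001 of a read. A count of 0 allows up to 3 reads, 2.27 to 3.89 on the deposited scale, for counting error only. Another 4893 rows that join neighbouring loci were left out of the comparisons.

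Single loci that reached a value of 10 in 2 or more libraries entered the test with limma 3.58.1 in R 4.3.3, its prior variance following the mean. The scale was log2(value + 1), which understates changes of low loci. P-values are two-sided and Benjamini-Hochberg adjusted over 13764 loci, threshold 0.05. Count tests on the recovered reads used edgeR 4.0.16 (2839 calls with TMM) and DESeq2 1.42.0. On simulated data for this comparison over 13764 loci, limma called 44% of loci changed 1.5-fold and 90% of those changed 4-fold, with a false share of 9.33% among its calls.

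KRAB boxes were found with a profile (pyhmmer 0.12.3, E-value at most 1e-05) built from 272 windows of 38 residues in translated GENCODE M21 coding sequences, and C2H2 fingers by pattern. Of genes with the profile, 91.7% held a finger. Members and gene lists were chosen with earlier results of these data known. Genes were named by rule: Asxl1, up to 10 called members of largest change in each direction with separated libraries, the 5 with the most reads, the smallest p in each cluster, the role lists, 3 loci on each side of the floor and called corepressors. Members named outside this rule were chosen after their values were seen.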

Additional observations from a re-analysis of the deposited data

Results flagged for a closer look

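The rows of the table that join a pair of neighbouring loci were used in no comparison, and 170 of them carry a Zfp name. In every 1000000 recovered reads of a library they held 8.67 and 8.96 in WT replicates 1 and 2. They held 12.1 and 9.48 in KO replicates 1 and 2, so both KO libraries were above both WT libraries. This signal was singled out because it lies outside the measurement reported above, and no test of it was run.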

How the results depend on the processing

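Across the alternatives, 0 called members changed sign. In the fits that left out 1 library this was fixed in advance, since no called member had libraries that overlapped between genotypes. Of the 57 calls, 55 were kept by edgeR with TMM, 53 by edgeR with RLE, 56 by DESeq2, 57 by limma after TMM scaling, 47 with no filter, 13 and 11 when WT replicate 1 or 2 was left out, and 48 and 46 when KO replicate 1 or 2 was. Leaving out 1 library in turn gave 4 to 17 members higher, 7 to 62 lower and a median of -0.15 to -0.13. It gave 0 to 2 KRAB members higher and 2 to 38 lower, and 4 to 15 members without a KRAB box higher and 5 to 23 lower. A genotype left with 1 library is assumed to vary like the other.

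Upper-quartile scaling moved the median of all loci from -0.01 to -0.06 and gave a members' median of -0.19, with 9 higher and 69 lower, and 25 lower members without a KRAB box. Calls on the higher side then made up 42.6% of calls over all loci, beside 57.0% with the deposited scaling. Calls on the lower side made up 88.5% of the members' calls, beside 80.7%. Taking every tested Zfp locus moved the median to -0.16. Restricting to members with a single name, an alternative chosen after seeing the data, gave 8 higher and 35 lower of 206. Leaving out 1 library in turn gave 20 to 21 of 23 clusters with a median below 0, and upper-quartile scaling gave 22. Cluster gaps of 0.5 and 2 Mb gave 21 and 20 of 23 clusters with a median below 0.

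With the replicate number as a block, 14 members were higher and 58 lower, and 2 KRAB members were higher. Deviations of same-numbered libraries correlated at 0.246 over all tested loci and at 0.508 over the 11023 with a mean of 100 or more, the range that holds the members. Xist also separated the numbers, but with 2 pairs and no label that ties them the numbers are not shown to pair the libraries. At this size, a member that misses the threshold is not shown to be unchanged.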

Other observations

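Some Zfp loci were set apart by 1 library, and they are named here after their values were seen. Zfp949, a KRAB member, had normalised read counts of 846 and 781 in WT and 1193 and 3069 in KO, and its log2 difference of 1.23 ± 0.40 (SE) did not pass the threshold (limma, adjusted p = 0.0785). Zfp951, below the value floor, had 456 and 82.9 in WT and 637 and 422 in KO (1.41, limma, adjusted p = 0.22). Zfp97 had 187 in KO replicate 1 and 2.59, 3.66 and 4.95 in WT replicates 1 and 2 and KO replicate 2, and was too low to be tested.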
